A study of Homo sapiens with 12 samples.

Results

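The genes described here are the cyclins and kinases that carry a cell through the G1 phase, with the kinase inhibitor p27 and the retinoblastoma gene. The 10 genes were taken by symbol: the D cyclins CCND1, CCND2 and CCND3, the E cyclins CCNE1 and CCNE2, the kinases CDK2, CDK4 and CDK6, CDKN1B (p27) and RB1. All 10 were among the 10050 genes tested. The array held 26 probe sets with one of these symbols alone, of which 19 had enough signal (5 log2 units or more on at least 3 arrays) and 7 did not. Where a gene had several, the one of highest mean level over the 12 arrays stood for it.

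HK-2 cells, an immortalised epithelial line of the human kidney's proximal tubule, were grown in a medium with epidermal growth factor, insulin, transferrin, hydrocortisone and selenite, and were treated near confluence. Cells received Ra or its vehicle (control) and total RNA was taken after 12 h or 48 h, in a series that looked for expression signatures of kidney toxicity. Each of the 4 groups (control 12 h, Ra 12 h, control 48 h, Ra 48 h) had 3 samples labelled as biological replicates. The sources used here give neither the identity nor the dose of Ra. Levels are log2 values made with GCRMA from Affymetrix 3′ arrays, so 1 unit is a 2-fold change, and levels of different genes are not compared because each probe set has its own scale.

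D cyclins bind CDK4 and CDK6 after growth factor signals, and these kinases begin to phosphorylate RB1, the brake on the E2F transcription factors. E2F then drives genes of DNA replication together with the E cyclins, which bind CDK2 and complete the phosphorylation of RB1. p27 binds cyclin E with CDK2 and holds it inactive, and p27 is known to accumulate in epithelial cells that stop dividing at confluence.

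The promoters of 3 of these genes are shown for the levels described below: CCNE1, whose level was far apart between groups at 48 h, CDK4, whose changes ran opposite to it, and CDKN1B. Each is the 250 bases before the annotated start, from RefSeq (GRCh38.p14), read 5′ to 3′ on the gene's strand. Several kinds of word were searched on both strands in the 250 bases before and the 50 after each start: E2F words (TTTGGCGC, TTTCCCGC, TTTGCCGC or TTTCGCGC; no word contains another), the cyclic AMP response element TGACGTCA, the E-box CACGTG and the forkhead word GTAAACA. Capitals mark a match. CCNE1 lies at chr19:29811741-29811990 (plus strand), CDK4 at chr12:57752311-57752560 (minus strand) and CDKN1B at chr12:12717118-12717367 (plus strand).
CCNE1: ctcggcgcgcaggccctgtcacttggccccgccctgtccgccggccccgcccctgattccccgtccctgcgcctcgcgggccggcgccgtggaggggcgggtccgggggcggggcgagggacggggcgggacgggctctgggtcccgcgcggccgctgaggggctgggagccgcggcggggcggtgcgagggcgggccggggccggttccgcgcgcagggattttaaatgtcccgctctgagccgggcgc
CDK4: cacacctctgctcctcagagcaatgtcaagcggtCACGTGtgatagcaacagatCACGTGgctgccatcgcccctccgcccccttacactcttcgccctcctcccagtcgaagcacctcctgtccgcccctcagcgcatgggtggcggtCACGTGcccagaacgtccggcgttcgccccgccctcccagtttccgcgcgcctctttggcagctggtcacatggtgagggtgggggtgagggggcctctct
CDKN1B: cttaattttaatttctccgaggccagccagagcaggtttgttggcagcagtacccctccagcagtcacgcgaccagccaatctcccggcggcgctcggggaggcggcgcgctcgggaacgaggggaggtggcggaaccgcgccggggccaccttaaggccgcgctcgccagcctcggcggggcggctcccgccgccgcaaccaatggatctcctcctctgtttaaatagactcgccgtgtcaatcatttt
The CDK4 promoter held 3 E-boxes, which begin at -216, -196 and -101 from the start, while 7.26% of all 35116 promoter windows held at least 1. The CCNE1 and CDKN1B windows held none of the words. Windows were on hand for 6 of the genes (CCND3, CCNE1, CDK4, CDK6, CDKN1B and RB1), some with several. Of these genes 0 held an E2F word in any window, while 3.31% of all single windows held one. The windows of CCND3 and RB1 belong to starts inside the gene, as RB1 begins at 48303751 on chromosome 13 and its window at 48476200, so the outermost starts of these genes were not searched. A forkhead word lay in a CCND3 window at -2 (3.42% of all windows hold one) and an E-box in a CDK6 window at 31 after the start. The cyclic AMP word was in 0 of the windows of these genes and in 1.85% of all windows. A match is only a run of letters, and its absence says only that those letters are not in the window.

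The 48 h arrays varied more than the 12 h arrays: the replicate SD of the median gene was 0.124 log2 units (control) and 0.122 (Ra) at 12 h, and 0.219 and 0.431 at 48 h. One array stood apart, replicate 2 of Ra at 48 h, whose 75th percentile was 6.30 log2 units against 7.01 to 7.21 on the other 11. The median of all genes was lower with Ra at 48 h by 0.20 log2 units (difference -0.20), and without that array the median difference was 0.01. Of 16 proximal tubule markers, 3 were measured above the filter (PAX8, KRT18 and KRT8). None of the 4 endothelial or 5 immune markers passed the filter and 4 of 6 fibroblast markers did, and limma called 0 of these 7 markers with Ra at either time. Their part in the results below was not tested. GAPDH differed between Ra and control at 48 h by -0.04 log2 units and ACTB by 0.07, and limma called neither. In bulk RNA, a smaller share of cells in a phase and less of an RNA per cell cannot be told apart.

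In control cells, the E cyclins, CCND1, CCND3, CDK2 and CDK6 fell between 12 h and 48 h and CDK4 rose. At 48 h, Ra-treated cells had more CCNE2, CCNE1 and CCND1 than control cells of that time, 3.90, 3.12 and 2.56 times as much, and less CCND2 (3.43-fold) and CDK4 (1.35-fold). Of these calls, only that of CCNE2 held without each of the 12 arrays in turn. On the 6 arrays of 48 h limma called 0 of the 10 genes. At 12 h the clearest difference was a lower CCND2 with Ra, by 2.59-fold, called when the 12 h arrays were fitted alone but not in the fit of 12 arrays as deposited. p27 and RB1 were not called in any comparison by that fit. Tests are limma's on 12 arrays, adjusted over all 10050 genes, with a threshold of 0.05, unless a fit of the 6 arrays of the 2 groups compared is named.

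**Figure D1:**
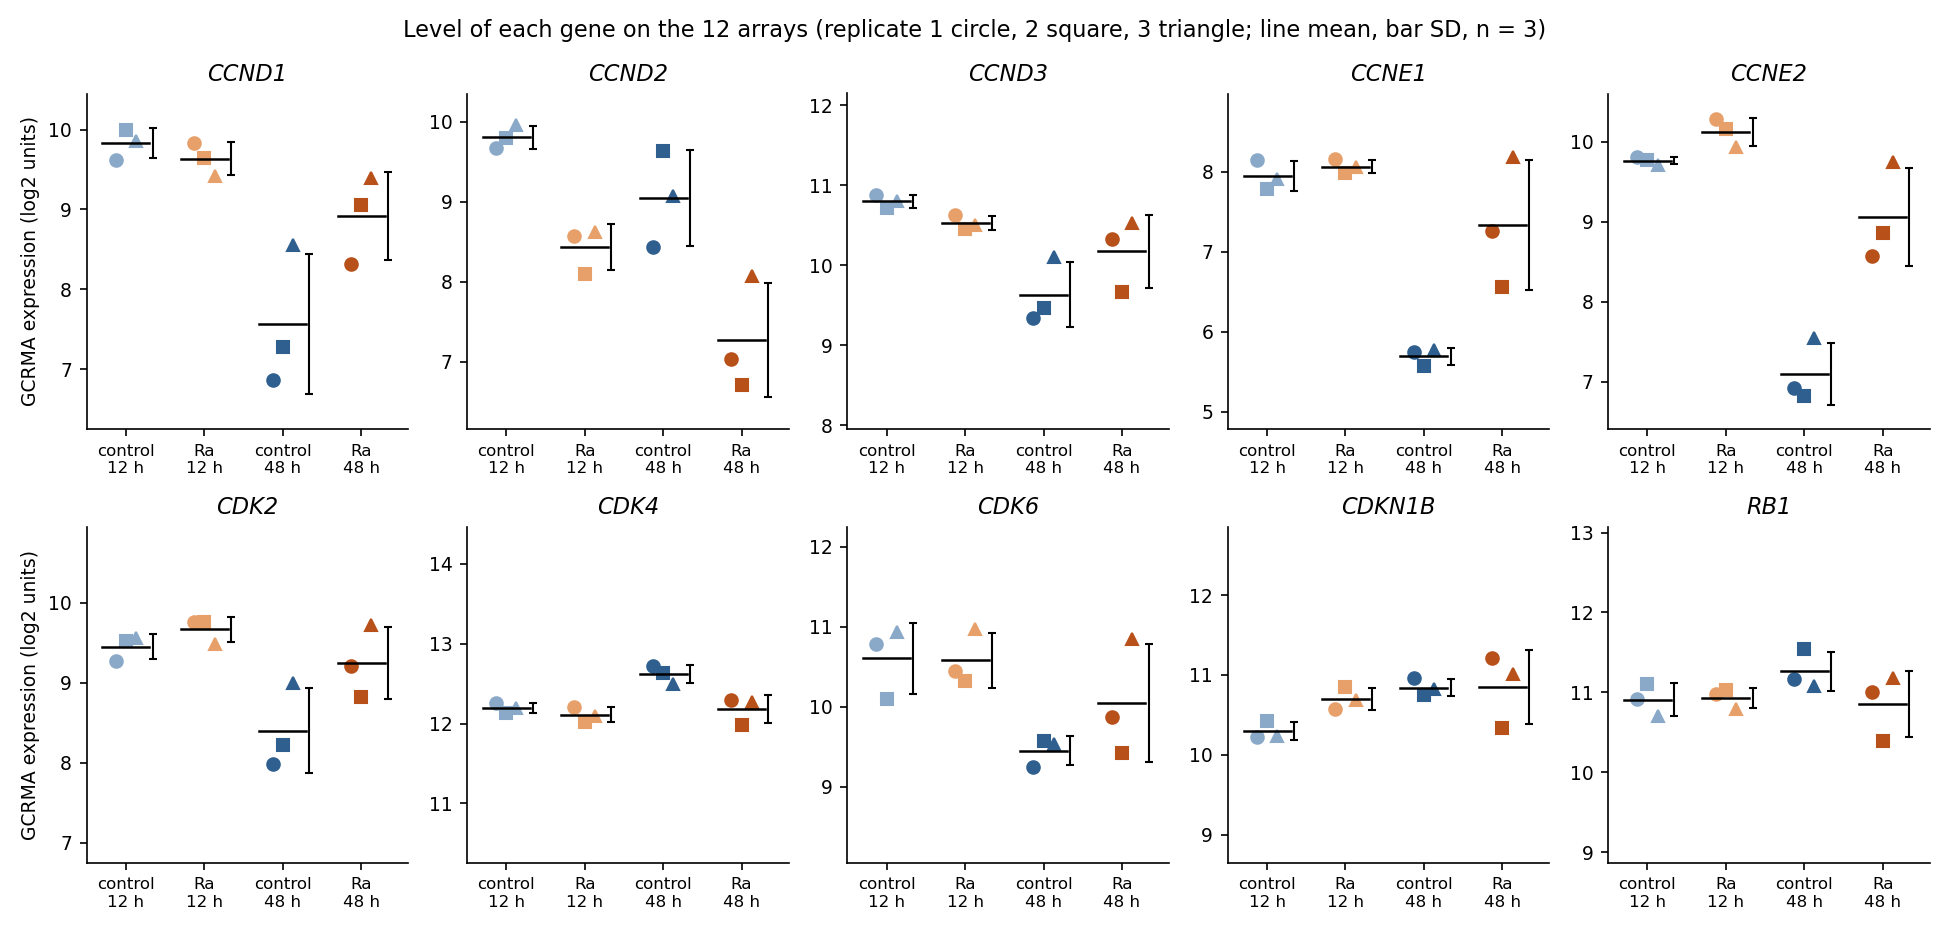
GCRMA expression in log2 units of the 10 genes on each of the 12 arrays, by group (control and Ra at 12 h and 48 h). Marker shapes give the replicate, lines the group mean and bars the SD of 3 arrays; each panel has its own axis. CCNE1 and CCNE2 are lowest in control cells at 48 h, and CCND2 is lowest in Ra-treated cells at 48 h.

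CCND1 encodes cyclin D1, the D cyclin that many growth factor pathways induce. Its level was 9.62, 9.99 and 9.86 log2 units in replicates 1 to 3 of control at 12 h and 9.83, 9.64 and 9.42 with Ra. Levels at 48 h were 6.87, 7.28 and 8.55 in control cells and 8.32, 9.05 and 9.39 with Ra. The groups mixed at 12 h, and at 48 h the highest control array lay above the lowest Ra array. With Ra at 48 h CCND1 rose by 1.35 ± 0.38 log2 units (SE, adjusted p = 0.0381), with a 95% interval of 0.54 to 2.17. In control cells it fell by 2.26 ± 0.38 from 12 h to 48 h (adjusted p = 0.00357), with no overlap. The rise with Ra was no longer called without any one of 10 of the 12 arrays: it was 1.29 (adjusted p = 0.0622) without replicate 2 and 1.12 (0.0916) without replicate 3 of Ra at 48 h, 1.01 (0.151) and 1.21 (0.141) without control replicates 1 and 2 of 48 h, and the adjusted p was 0.0553 to 0.0584 without any array of 12 h.

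CCND2 encodes cyclin D2. At 12 h its level was 9.66, 9.80 and 9.95 log2 units in control cells and 8.57, 8.10 and 8.62 with Ra. At the later time they were 8.43, 9.64 and 9.07 in control cells and 7.03, 6.70 and 8.08 with Ra. Every Ra array was below every control array of its time, and replicate 3 was the highest of the Ra arrays at both times. At 12 h the difference was -1.37 ± 0.35 log2 units (adjusted p = 0.311 with limma on 12 arrays). On the 6 arrays of 12 h, whose replicates are closer, CCND2 fell by the same 1.37 ± 0.15 (adjusted p = 0.0057), and blocking on the replicate number gave an adjusted p of 0.0017. It was lower in all 6 such fits that left out 1 array, with adjusted p from 0.0134 to 0.0322. On 12 arrays it was called with centred arrays (-1.39, adjusted p = 0.0492) and with array weights (-1.34, 0.00121). At 48 h CCND2 fell with Ra by 1.78 ± 0.35 (adjusted p = 0.0144, 95% interval -2.55 to -1.01). Without control replicate 2 of 48 h the difference was -1.48 (adjusted p = 0.0787). The effect of Ra at 48 h minus that at 12 h was -0.40 ± 0.50 (adjusted p = 0.696), with an interval of -1.49 to 0.68.

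CCND3 encodes cyclin D3. It ran from 10.72 to 10.87 log2 units in control cells and from 10.45 to 10.63 with Ra at 12 h, and from 9.34 to 10.10 and from 9.66 to 10.53 at 48 h. The 12 h groups did not overlap, with Ra lower, and the 48 h groups did. Control cells fell by 1.16 ± 0.24 with time (adjusted p = 0.0075). The difference at 12 h was -0.27 (adjusted p = 0.896 on 12 arrays, 0.0593 on 6 and 0.0223 on 6 with the replicate block). At 48 h it was 0.54 ± 0.24 (adjusted p = 0.134), and without replicate 2 of Ra it was 0.80 ± 0.20 and called (adjusted p = 0.0222). Among the D cyclins, CCND2 thus had a difference opposite in sign to those of CCND1 and CCND3 at 48 h.

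CCNE1 encodes cyclin E1. Its level was 8.15, 7.78 and 7.91 log2 units in control cells and 8.16, 7.98 and 8.05 with Ra at 12 h. Values of 48 h were 5.74, 5.57 and 5.77 in control cells and 7.26, 6.56 and 8.18 with Ra. The control arrays of 48 h were the lowest of the 12 and lay close together, while the Ra arrays of 48 h spread over more than 1 log2 unit and replicate 3 reached the 12 h level. Control values at 48 h were near 5 log2 units, where GCRMA's background model weighs on a fold change. CCNE1 rose with Ra at 48 h by 1.64 ± 0.32 log2 units (adjusted p = 0.0129, interval 0.95 to 2.33). Without control replicate 1 or 2 of 48 h the adjusted p was 0.0564 or 0.0691. In control cells CCNE1 fell by 2.25 ± 0.32 with time (adjusted p = 0.00228), and at 12 h the difference between Ra and control was 0.12 ± 0.32.

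CCNE2 encodes cyclin E2. It was at 9.81, 9.78 and 9.71 log2 units in control cells and at 10.29, 10.16 and 9.94 with Ra at 12 h. At 48 h it was at 6.92, 6.83 and 7.54 in control cells and at 8.57, 8.86 and 9.75 with Ra. Ra arrays lay above control arrays at both times, and the gap was wider at 48 h. CCNE2 rose with Ra at 48 h by 1.96 ± 0.28 log2 units (adjusted p = 0.00828, interval 1.35 to 2.57), and the call held without each of the 12 arrays in turn. In control cells it fell by 2.67 ± 0.28 with time (adjusted p = 0.00104), the largest fall among the 10 genes. At 12 h the difference was 0.36 ± 0.28 (adjusted p = 0.853 on 12 arrays, 0.0530 on 6 and 0.0179 on 6 with the replicate block). The effect of Ra at 48 h minus that at 12 h was 1.60 ± 0.40 for CCNE2 (adjusted p = 0.103) and 1.52 ± 0.45 for CCNE1 (adjusted p = 0.128), so a difference between the times was not called for either.

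CDK4 encodes the kinase partner of the D cyclins. At 12 h it was at 12.26, 12.13 and 12.19 log2 units in control cells and at 12.21, 12.02 and 12.09 with Ra. By 48 h it was at 12.72, 12.64 and 12.49 in control cells and at 12.30, 11.98 and 12.27 with Ra. The 48 h control arrays were the 3 highest of the 12, and the Ra arrays of 48 h were mixed with those of 12 h. CDK4 rose in control cells by 0.42 ± 0.12 with time (adjusted p = 0.0294) and fell with Ra at 48 h by 0.43 ± 0.12 (adjusted p = 0.0380). That fall is -0.23 relative to the median of all genes. After each array was centred on its median it was -0.18 and not called (adjusted p = 0.315), and with quantile normalization it was -0.32 and called (0.0216). It was called in 3 of the 12 fits that left out 1 array, those without replicate 1 or 2 of Ra or replicate 3 of control at 48 h. The rise in control cells was called in 7 of the 12 such fits, and not without the intensity trend (limma, adjusted p = 0.0670).

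CDK6, the other partner of the D cyclins, ranged from 10.09 to 10.93 log2 units in control cells and from 10.32 to 10.97 with Ra at 12 h. At 48 h it ranged from 9.24 to 9.57 in control cells and from 9.42 to 10.85 with Ra, where replicate 3 alone was at the 12 h level. In control cells CDK6 fell by 1.15 ± 0.33 (adjusted p = 0.0299), and the difference with Ra at 48 h was 0.59 ± 0.33 (adjusted p = 0.228). The fall was called in 8 of the 12 fits that left out 1 array, and not without the signal filter (limma, adjusted p = 0.0767). CDK2, the partner of the E cyclins, ranged from 9.27 to 9.56 and from 9.48 to 9.76 in control and Ra-treated cells at 12 h, and from 7.98 to 9.00 and from 8.82 to 9.72 at 48 h. In control cells CDK2 fell by 1.05 ± 0.28 (adjusted p = 0.0205), called in 8 of the 12 fits that left out 1 array. With Ra at 48 h CDK2 differed by 0.85 ± 0.28 (adjusted p = 0.0602), and without replicate 2 of Ra by 1.07 ± 0.27, which was called (adjusted p = 0.0245). The 2 kinases thus had lower means in control cells at 48 h than in any other group, where CDK4 had its highest.

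CDKN1B encodes p27. Its level was 10.22, 10.42 and 10.24 log2 units in control cells and 10.57, 10.85 and 10.69 with Ra at 12 h. The 48 h values were 10.96, 10.74 and 10.83 in control cells and 11.21, 10.33 and 11.01 with Ra. Ra arrays lay above control arrays at 12 h, and at 48 h they lay on both sides of them, with replicate 2 the lowest. At 12 h the difference was 0.40 ± 0.20 (adjusted p = 0.695 on 12 arrays). On the 6 arrays of 12 h CDKN1B rose by the same 0.40 ± 0.10 (adjusted p = 0.0345, and 0.00701 with the replicate block), but it was not called without any one of these 6 arrays, where the adjusted p was 0.0530 to 0.112. With array weights the 12 arrays called it (0.39, adjusted p = 0.00851). At 48 h the difference was 0.01 ± 0.20, with an interval of -0.43 to 0.45, and without replicate 2 of Ra it was 0.27 (adjusted p = 0.141). With time the control cells differed by 0.55 ± 0.20 (adjusted p = 0.0776 on 12 arrays), called as a rise on 6 arrays (0.0122) and on 12 arrays after quantile normalization (0.57, 0.00273), with centred arrays (0.53, 0.00402), with array weights (0.48, 6.25e-04) and without replicate 1 or 2 of Ra at 48 h (0.0464 and 0.00387). On those 6 arrays the call was lost without control replicate 1 or 3 of 12 h, with differences of 0.51 and 0.52 (adjusted p = 0.0568 and 0.0560).

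RB1 ranged from 10.70 to 11.11 and from 10.79 to 11.03 log2 units in control and Ra-treated cells at 12 h, and from 11.08 to 11.54 and from 10.39 to 11.18 at 48 h. Neither time separated the groups. The difference with Ra was 0.02 ± 0.21 at 12 h and -0.40 ± 0.21 at 48 h (adjusted p = 0.999 and 0.194), and without replicate 2 of Ra the latter was -0.17. The change with time in control cells was 0.35 ± 0.21 (adjusted p = 0.259). With array weights limma called the latter (0.58, adjusted p = 4.33e-04) and the difference with Ra at 48 h (-0.35, 0.0398).

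Counted together, 5 of the 10 genes were called with Ra at 48 h: 3 rose (CCND1, CCNE1 and CCNE2), where 3.00% of all genes rose, and 2 fell (CCND2 and CDK4), where 9.56% fell. In either direction 12.6% of all genes were called. The groups of 4 genes did not overlap at 48 h (CCNE1 and CCNE2 higher, CCND2 and CDK4 lower), against 24.0% of all genes. On the 6 arrays of 48 h, limma called 0 of the 10 genes and 0% of all genes, while 6 of the 10 and 1748 of all genes had an unadjusted p under 0.05, so the calls at 48 h rest on a spread pooled with the tighter 12 h arrays. The count was 3 without replicate 3 of Ra at 48 h or without any one array of 12 h, 2 without control replicate 1 and 1 without control replicate 2 of 48 h. Scaling changed the split between the directions for all genes, from 301 higher and 961 lower as deposited to 1553 and 1461 with quantile normalization and 1578 and 1285 with centred arrays. For the 10 genes it changed from 3 and 2 to 6 and 2 and to 6 and 1.

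**Figure D2:**
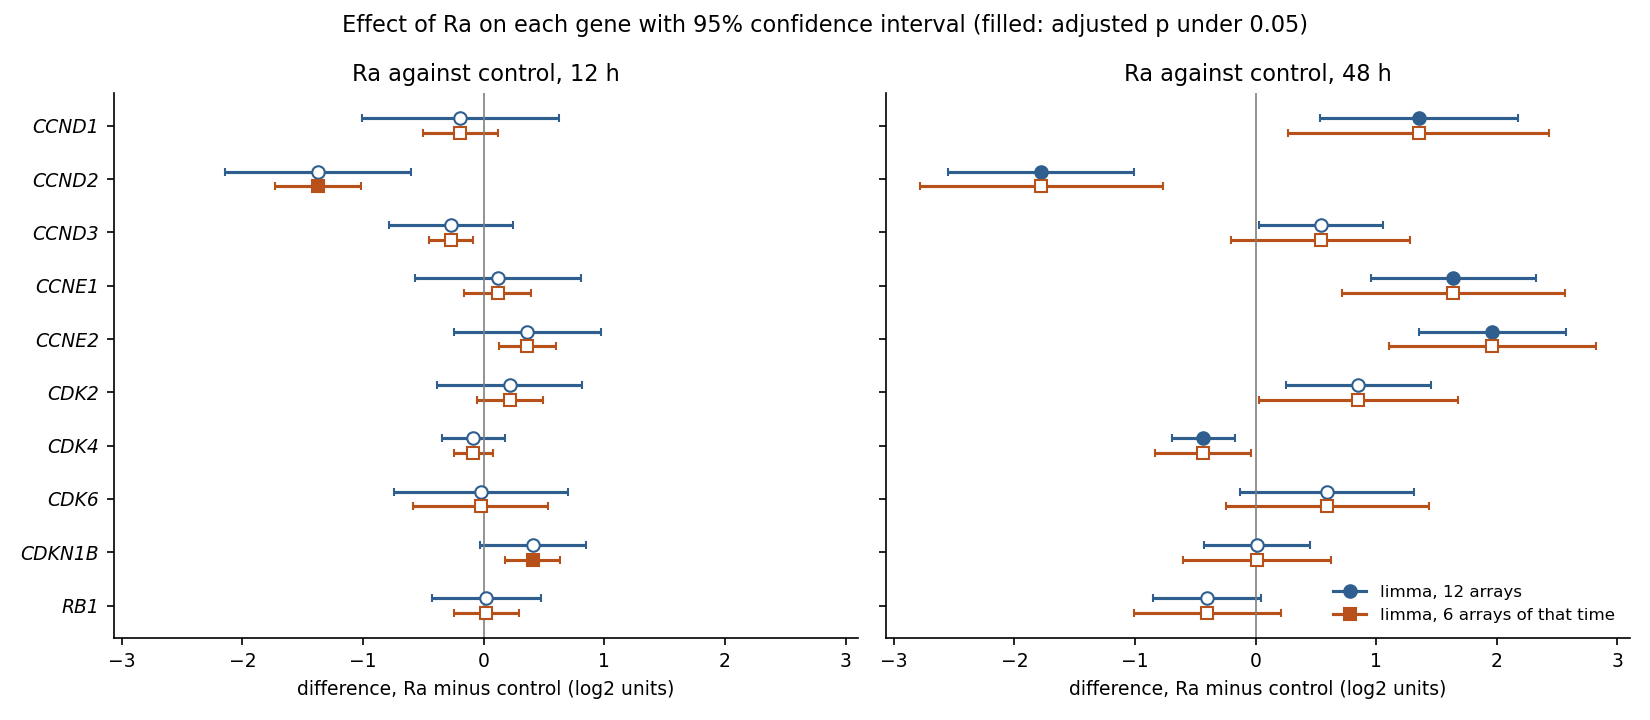
Difference between Ra-treated and control cells in log2 units for the 10 genes at 12 h and 48 h, with 95% intervals from limma on 12 arrays (circles) and on the 6 arrays of each time (squares); filled markers have an adjusted p under 0.05. The intervals of 6 arrays are narrower at 12 h and wider at 48 h than those of 12 arrays, so CCND2 and CDKN1B are filled at 12 h only on 6 arrays and the 5 genes filled at 48 h only on 12.

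At 12 h limma on 12 arrays called 0 of the 10 genes and 0.0299% of all genes. An unadjusted p under 0.05 was found for 1 of the 10 (CCND2) and for 751 of the 10050 genes. On 6 arrays limma called 2 (CCND2 lower, CDKN1B higher), against 13.6% of all genes. The labels do not say what a replicate number marks, and the numbers were taken to pair the 12 h samples from these same values. With the numbers as a block the 6 arrays gave 4 calls, against 23.4% of all genes. CCND2 and CCND3 were lower and CCNE2 and CDKN1B higher. These 4 are also the genes whose groups did not overlap at 12 h, against 35.3% of all genes. Without a block, 1 of the 10 genes was called on these arrays without any one of 5 arrays and 2 without replicate 3 of Ra. Those 2 were CCND2, lower, and 1 higher gene other than CDKN1B, which was not called there (limma, adjusted p = 0.0571). That fit called 1388 of all genes, and the other 5 called 293 to 584.

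The effect of Ra at 48 h minus that at 12 h was called for 0 of the 10 genes and for 0.0199% of all genes on 12 arrays. An unadjusted p under 0.05 was found for 4 of the 10 (CCND1, CCND3, CCNE1 and CCNE2) and for 1933 of the 10050 genes. For CCND1 the difference of effects was 1.55 ± 0.53 (adjusted p = 0.159) and for CCND3 0.81 ± 0.34 (0.215). With quantile normalization or centred arrays 3 of the 10 genes were called (CCND3, CCNE1 and CCNE2), with adjusted p of 0.0324, 0.0167 and 0.0253 and of 0.0285, 0.0162 and 0.0234. Calls over all genes also grew, from 0 higher and 2 lower as deposited to 446 and 498 with quantile normalization and 420 and 436 with centred arrays. The count among the 10 genes was 2 without replicate 1 of Ra or control replicate 3 of 48 h and 1 without replicate 2 of Ra of 48 h.

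Over time, 6 of the 10 genes fell in control cells (CCND1, CCND3, CCNE1, CCNE2, CDK2 and CDK6), where 10.1% of all genes fell, and 1 rose (CDK4), where 9.37% rose. In either direction 19.5% of all genes were called. On the 6 control arrays 8 were called, the same 7 genes and CDKN1B, against 33.2% of all genes. In 9 of the 10 genes the times did not overlap, all but RB1, against 50.8% of all genes. The count on 12 arrays was 4 without control replicate 3 of 12 h and without control replicate 1 or 2 of 48 h, and on 6 arrays it was 5 without control replicate 1 or 3 of 12 h.

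In Ra-treated cells no change with time was called for the 10 genes, nor for any of all genes (0% on 12 arrays and 0% on 6), while 3 of the 10 genes had an unadjusted p under 0.05 in each fit, as had 1562 and 843 of all genes. The differences were -1.16 ± 0.35 for CCND2, -1.07 ± 0.28 for CCNE2, -0.73 ± 0.32 for CCNE1 and -0.71 ± 0.38 for CCND1. The times did not overlap for CCND1, CCND2 and CCNE2, lower at 48 h, against 19.5% of all genes. Without replicate 3 of Ra at 48 h, CCND2, CCNE1 and CCNE2 were called, at -1.57, -1.16 and -1.42. The change with time in Ra-treated cells minus that in control cells equals the effect of Ra at 48 h minus that at 12 h. That difference was called for 0 of the 10 genes on 12 arrays, so a different change with time was not shown. The comparison of Ra with control at 48 h and that of control cells over time share the 3 control arrays of 48 h, with opposite sign, so their values are given side by side and not as support for each other.

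**Figure D3:**
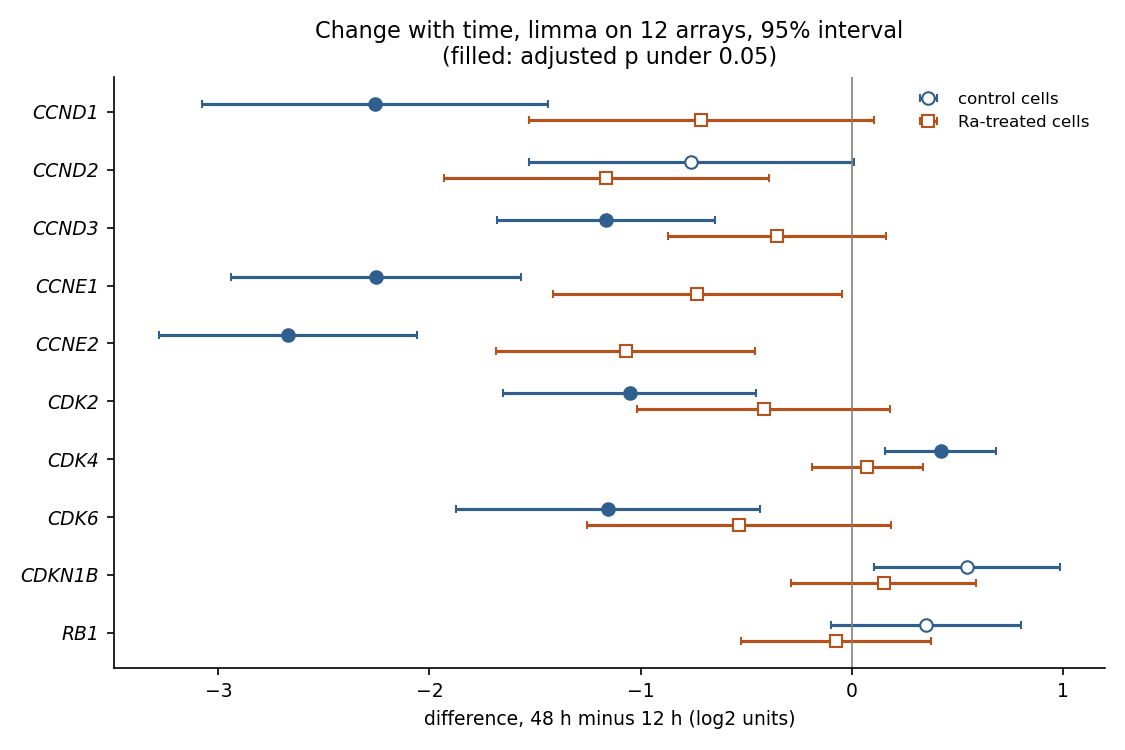
Difference between 48 h and 12 h in log2 units for the 10 genes in control cells (circles) and Ra-treated cells (squares), with 95% intervals from limma on 12 arrays; filled markers have an adjusted p under 0.05. In control cells 6 genes fell and CDK4 rose, and no marker of the Ra-treated cells is filled. The difference between Ra-treated and control cells in this change was called for 0 of the 10 genes.

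By mean level, CCND1, CCND3, CCNE1, CCNE2, CDK2 and CDK6 shared the lowest group, control at 48 h, and the next lowest, Ra at 48 h. CCNE1 had means of 5.69, 7.33, 7.95 and 8.06 log2 units in control 48 h, Ra 48 h, control 12 h and Ra 12 h, and CCNE2 of 7.10, 9.06, 9.77 and 10.13 in the same order. For CCNE1 the step from control to Ra at 48 h was called, and the neighbouring groups above it did not differ beyond their spread. CCND2 had another order, 7.27 in Ra 48 h, 8.43 in Ra 12 h, 9.05 in control 48 h and 9.81 in control 12 h, and the ranges of Ra 12 h and control 48 h overlapped. CDK4 was at 12.62 in control 48 h and between 12.11 and 12.20 in the other groups, which overlapped. CDKN1B was at 10.30 in control 12 h and between 10.70 and 10.85 in the other groups, which overlapped.

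Of the 10 genes, 6 had more than 1 probe set above the signal filter, 15 probe sets in all. With limma over all filtered probe sets, the other CCND2 probe set was also lower with Ra at 48 h, by a larger difference of -3.20 ± 0.44 log2 units (adjusted p = 0.00970), but its Ra level of 3.55 is low enough to depend on the background model. Its difference at 12 h was -1.16 ± 0.44. The other CCNE2 probe set rose with Ra at 48 h by 2.18 ± 0.34 (adjusted p = 0.0114) and in control cells fell by 3.51 ± 0.34. Its control level at 48 h was 4.76, also low enough for both differences to depend on the background model. The other CCND1 probe set differed with Ra at 48 h by only 0.77 ± 0.41 (adjusted p = 0.219), while in control cells it fell by 2.07 ± 0.41 (adjusted p = 0.00742). The mean of the CCND1 probe sets differed by 1.06 with Ra at 48 h and was not called (adjusted p = 0.0721). All 5 CDK6 probe sets were higher with Ra at 48 h, by 0.30 to 0.63, and none was called. In control cells all 5 had lower means at 48 h than at 12 h. The difference of -0.96 in a CDK6 probe set other than the chosen one was not called (limma, adjusted p = 0.106). The second CDK2 probe set differed by 0.77 with Ra at 48 h (adjusted p = 0.0740), and the second RB1 probe set by -0.17. The 7 probe sets below the filter were 2 of CCND2, 2 of CDK6 and 1 each of CCND3, CCNE1 and CDK2, and none reached 5 log2 units on any array.

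**Figure D4:**
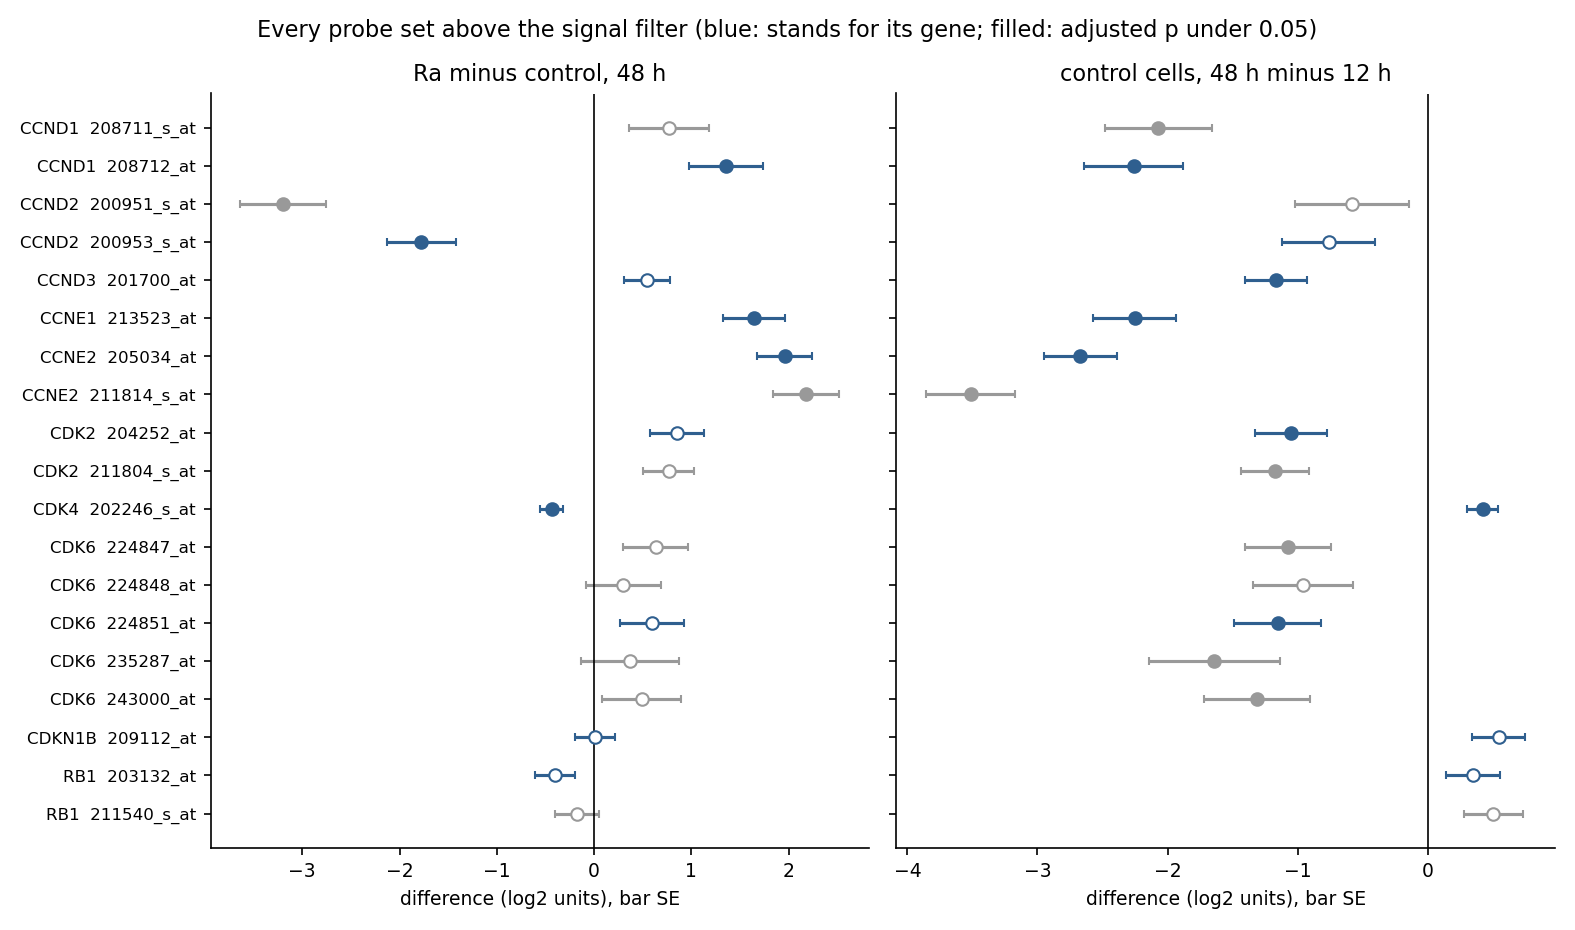
Difference in log2 units, with its SE, for each of the 19 probe sets above the signal filter, with Ra at 48 h and in control cells over time. Within each panel the probe sets of a gene share a sign, but CCND1 is called with Ra by only 1 of its 2 probe sets. Over time, a CDK6 probe set other than the one standing for the gene is not called.

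Other genes of the G1 to S step were taken from 5 lists and are given by counts and medians. E2F target genes, most of them of DNA replication and nucleotide supply, with CCNA2, CDK1 and MYBL2 beside them, were the list with the most calls. With Ra at 48 h 14 of 19 measured members rose, where 3.00% of all genes rose, and 0 fell, with a median of 0.92 log2 units against -0.20 for all genes. RRM2, the small subunit of ribonucleotide reductase, rose by 1.47 ± 0.30, MCM5, of the replicative helicase, by 1.23 ± 0.25, CCNA2 (cyclin A2) by 1.15 ± 0.31 and MCM4 by 1.06 ± 0.27 (limma, adjusted p = 0.0148, 0.0145, 0.0363 and 0.0306). CDC6, a loader of the helicase, was the only one of the 19 with a lower mean (-1.51 ± 0.51, adjusted p = 0.0665). In control cells 18 of the 19 fell with time, where 10.1% of all genes fell, with a median of -1.11 against 0.01, among them RRM2 by 2.11, MYBL2 by 1.70, CCNA2 by 1.57 and MCM5 by 1.36. This comparison and that of Ra with control at 48 h share the control arrays of 48 h with opposite sign. The count of 14 was 0 without control replicate 1 or 2 of 48 h, 2 without replicate 3 of Ra at 48 h and 9 without control replicate 1 of 12 h, and it was 0 on 6 arrays, where 0% of all genes were called. The count of 18 was 12 without control replicate 3 of 12 h and 11 without control replicate 1 of 48 h. Of the 17 list members with a promoter window, 11 held an E2F word in at least 1 window, while 3.31% of all single windows held one. A gene can have several windows, so these shares are in unlike units.

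Among regulators of these kinases, SKP2, the ubiquitin ligase subunit that marks p27 for breakdown, rose with Ra at 48 h by 1.83 ± 0.36 and CDC25A, the phosphatase that activates CDK2, by 1.35 ± 0.25 (limma, adjusted p = 0.0130 and 0.0126). CDK7 and CCNH, subunits of the kinase that activates other CDKs, fell by 1.02 ± 0.25 and 0.73 ± 0.22 (limma, adjusted p = 0.0258 and 0.0477). These were the 4 calls among 16 measured genes of activation and turnover, where 12.6% of all genes were called. The list's median was -0.18, against -0.20 for all genes. In control cells with time the signs were reversed: SKP2 fell by 2.73 and CDC25A by 2.11, and CDK7 rose by 1.08 and CCNH by 0.72. These were 4 calls, where 19.5% of all genes were called, with a list median of 0.14 against 0.01. Both comparisons share the control arrays of 48 h with opposite sign, so the reversed signs are not an independent result.

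Of 6 measured CDK inhibitors other than p27, limma called 0 with Ra at 48 h, with 3 at an unadjusted p under 0.05 and a median of -0.18 against -0.20 for all genes. In control cells 3 were called, where 19.5% of all genes were: CDKN1A (p21) rose by 1.18 ± 0.32 and CDKN1C (p57) by 1.07 ± 0.25 with time, while CDKN3, a phosphatase of CDK2, fell by 0.91 ± 0.20 (limma, adjusted p = 0.0252, 0.0125 and 0.0102). Of 11 measured pocket proteins and E2F family genes, TFDP1, the partner of E2F in DNA binding, was the only call with Ra at 48 h and rose by 0.75 ± 0.19, where 3.00% of all genes rose. In control cells 5 fell with time, where 10.1% of all genes fell: E2F8 (-2.25), TFDP1 (-1.28), E2F7 (-1.04), E2F2 (-0.93) and E2F1. The list medians were 0.27 with Ra and -0.58 over time. Of 12 measured transcription factors upstream of the D cyclins or p27, FOSL1, a partner of JUN in AP-1, was the only call in both comparisons, where 12.6% and 19.5% of all genes were called. The list medians were -0.08 and 0.01, against -0.20 and 0.01 for all genes. FOSL1 rose with Ra at 48 h by 1.91 ± 0.42 and in control cells fell by 2.68 ± 0.42 with time. Here too the comparisons share the control arrays of 48 h with opposite sign.

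At 12 h limma on 12 arrays called 0 genes of the 5 lists, which held 19, 16, 6, 11 and 12 measured genes in the order above. An unadjusted p under 0.05 was found for 4 list genes and for 751 of the 10050 genes. On the 6 arrays of 12 h, RBL2, a relative of RB1, rose by 0.50, and STAT3 and ETS2 fell by 0.43 and 0.62 (adjusted p = 0.0219, 0.0107 and 0.0196), among 11 calls in the 5 lists, where 13.6% of all genes were called. PCNA, which rose by 0.21, was the only E2F target gene among them.

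**Figure D5:**
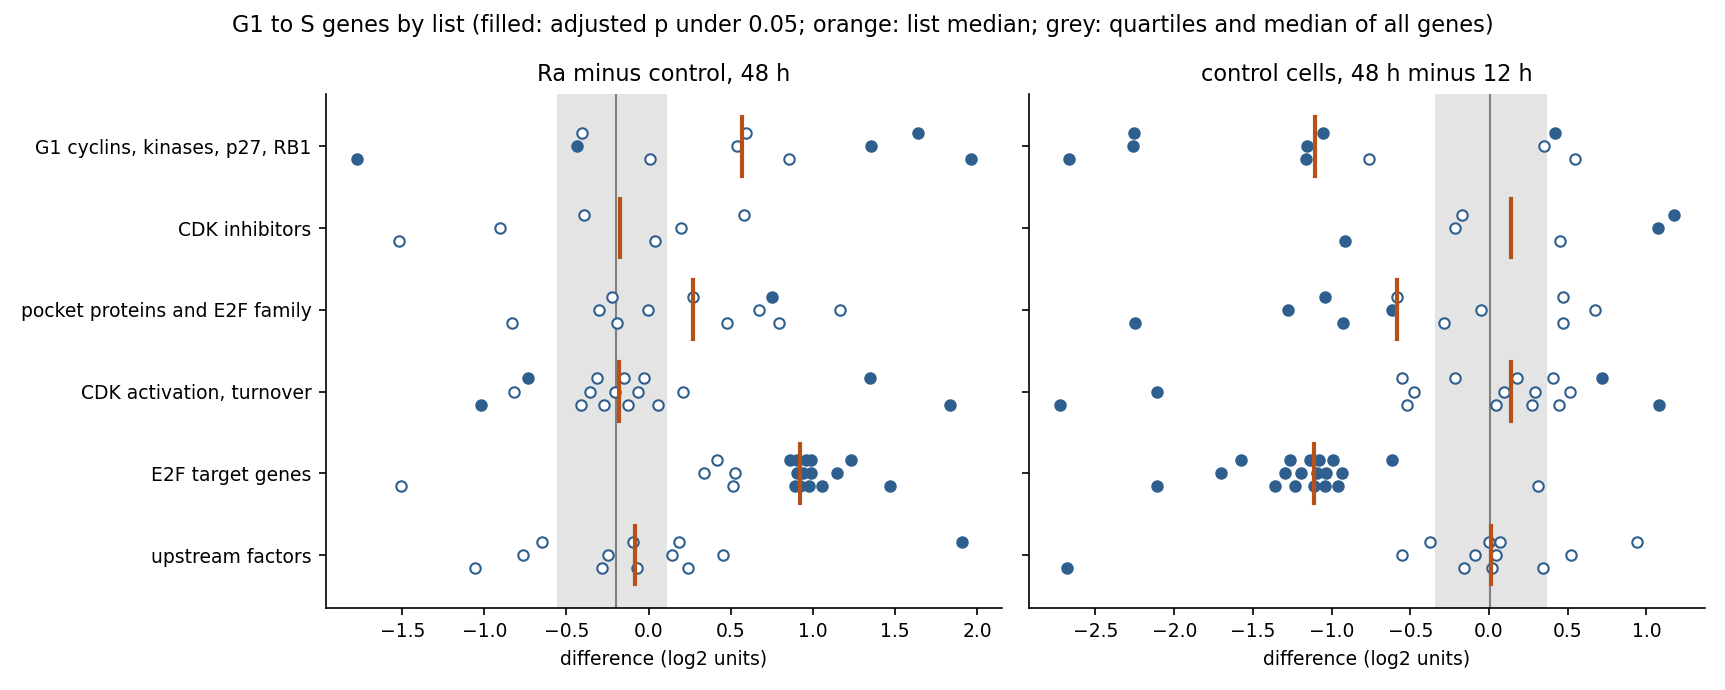
Differences in log2 units of the 10 genes and of the measured members of 5 lists, with Ra at 48 h and in control cells over time; filled points have an adjusted p under 0.05 (limma, 12 arrays), orange bars are list medians, and the grey band and line are the quartiles and median of all genes. E2F target genes lie to the right with Ra (14 of 19 called) and to the left over time (18 of 19 called), CDC6 being the point on the other side in both panels. The panels share the control arrays of 48 h with opposite sign.

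The genes most like CCND1, CCND2, CCNE1 and CCNE2 over the 12 arrays were found by the root-mean-square distance between log2 values centred on each gene's mean. Nearest to CCND1 were GINS1 (0.252 log2 units), RRM2 (0.260) and SPC25 (0.271), where the median gene was 1.04 away. Nearest to CCNE1 were CBX2 (0.267), EFHD2 (0.306) and CDC25A (0.332), with a median of 1.02. CCNE2 had SKP2 (0.280), FOSL1 (0.298) and CCNE1 (0.356) nearest, with a median of 1.24. CCND2 had no gene as near: AP1M2 was 0.455, ELL2 0.471 and HBEGF 0.494 away, with a median of 0.982. The 12 arrays share their groups and their scaling, so these distances are a description.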

How the data were processed

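Affymetrix 3′ arrays measured the total RNA of 12 HK-2 samples. The authors made the deposited log2 values with GCRMA, per the submitters' processing notes, which corrects background by probe sequence, normalizes arrays and summarises probe sets. No source used here gives its version or the set of arrays normalized together. No 2 arrays were identical (0 pairs). Of 54675 probe sets, 41097 had 1 gene symbol in the platform annotation, 1801 had several and 11777 were unnamed there. Probe sets with 1 symbol that reached 5 log2 units on at least 3 arrays were kept (17339), and the one with the highest mean over 12 arrays stood for each of 10050 genes.

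Group means over 12 arrays (8 residual degrees of freedom) were fitted in R 4.3.3 with limma 3.58.1, whose moderation followed an intensity trend, and p-values were adjusted over all genes by Benjamini-Hochberg, with 0.05 as the threshold. Fits of the 6 arrays compared were an alternative. Others were the filter (none, or 7 log2 units), quantile normalization, median centring, the mean of probe sets, dropping probe set types that cross-hybridise, no trend, robust moderation, array weights, a replicate block and leaving out each array. Leaving out arrays in the fits of 6 arrays was chosen after seeing the data. The code was tested on simulated data.

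Same-numbered Ra and control samples deviated together at 12 h (correlations of 0.182, 0.421 and 0.344 over genes), while differently numbered ones gave -0.397 to -0.004, so the numbers were taken to pair the 12 h samples. At 48 h they were 0.301, -0.219 and 0.097, and no pairing was taken. Deviations were taken from means of 3 arrays, so these correlations depend on each other. The labels state no pairing, and the blocked p-values rest on one read from these same data.

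The genes and lists were chosen with earlier results of these data known. Named from each list are at most 4 called genes with the largest difference in a comparison, and for 4 cyclins the 3 nearest genes. CDC6, the last E2F family gene of the 5 called and the genes of the 12 h fit of 6 arrays were named after their values were seen. Promoters were read from RefSeq windows, and plots were drawn with matplotlib 3.10.9.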

Additional observations from a re-analysis of the deposited data

Results flagged for a closer look

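The genes looked at were the 10 genes and the measured members of the lists (19, 16, 6, 11 and 12 genes). Of these, 4 had Ra arrays wholly on one side of the control arrays at 12 h and wholly on the other at 48 h. Over all genes, the groups did not overlap for 35.3% at 12 h and 24.0% at 48 h, in either direction. The share of all genes that changed sides was not counted, so the 4 are not shown to exceed it. All 4 come from the lists, and none is a G1 cyclin, one of their kinases, p27 or RB1. The difference between the effects was not called by limma for any of them. CDC25A differed by -0.32 log2 units at 12 h and by 1.35 at 48 h, and the difference of 1.67 had an adjusted p of 0.0783. CDK7 differed by 0.28 and -1.02, and the difference of -1.31 had an adjusted p of 0.114. TFDP1 differed by -0.23 and 0.75, and the difference of 0.98 had an adjusted p of 0.119. MYBL2 differed by -0.19 and 0.94, and the difference of 1.13 had an adjusted p of 0.127.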

How the results depend on the processing

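Of the 10 genes, the number called with Ra at 48 h (5 as reported) was 3 without the signal filter, 3 without cross-hybridising probe set types (which removes CCND2 and CDK4, while the other 3 kept their calls), 8 after quantile normalization, 9 with array weights, 0 on 6 arrays, 1 on 6 arrays with a replicate block, and 1 to 7 without one array. At 12 h the number (0) was 1 with centred arrays, 2 with array weights, 2 on 6 arrays and 4 on 6 arrays with the replicate block. For the difference of effects (0) it was 3 after quantile normalization, 3 with centred arrays, 7 with array weights and 0 to 2 without one array. Without one array it was 4 to 8 over time in control cells (7), 0 to 3 in Ra-treated cells (0), and on 6 arrays 1 to 2 for Ra at 12 h (2) and 5 to 8 for control cells over time (8). E2F target genes called with Ra at 48 h (14) were 3 without the filter, 0 on 6 arrays, 2 on 6 arrays with the replicate block and 0 to 16 without one array; over time in control cells (18) they were 11 to 19. The replicate block over 12 arrays added CDK2 (adjusted p = 0.0489) at 48 h. Signs turned for small differences that were not called: CDK6 with Ra over time (0.20 with array weights) and at 12 h (0.11 with the mean of probe sets, -0.28 to 0.14 without one array), RB1 with Ra over time (0.11 after quantile normalization, 0.17 with centred arrays, 0.17 with array weights, -0.23 to 0.16 without one array) and at 12 h (-0.082 to 0.12), and CDKN1B with Ra at 48 h (-0.17 to 0.27) and over time (-0.029 to 0.41). Over all alternatives, genes called ran from 0 to 2366 (Ra, 12 h), 0 to 5207 (Ra, 48 h), 1 to 4464 (difference of effects), 788 to 6127 (control cells over time) and 0 to 733 (Ra over time). The cause of the other changes was not tested. A block within time was not run for changes over time, nor 6 arrays for the difference of effects. The number of arrays limits the precision.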
